A study of Saccharomyces cerevisiae with 24 samples.

Results

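The genes described here encode the machinery that keeps chromatin of budding yeast silent. They are the 4 SIR genes, the 4 further sirtuin genes *HST1* to *HST4*, and *SUM1* and *RFM1*, which encode the DNA-binding and bridging subunits of the Sum1 repressor. They were taken by name from a table of read counts per open reading frame (ORF), and all 10 members were found among its 6692 ORFs. All 10 passed the filter on low counts in every comparison. The mRNA was sequenced from whole cells of 3 haploid strains, WT, H3L126M and H3L126H, in 2 media, with 4 replicate libraries in each of the 6 groups and 24 in all. YPD is the fermentative glucose medium, and YPEG contains ethanol and glycerol, so that growth needs respiration. WT is OCY1131, derived from BY4741 (S288C background, MATa, his3Δ1 leu2Δ0 met15Δ0 ura3Δ0) and carrying a restored *HHT2*. The mutants carry leucine 126 of histone H3 replaced with methionine or histidine in both H3 genes, *HHT1* and *HHT2*, by CRISPR-Cas9 editing, and each genotype was represented by 1 strain (NTY062 and NTY041). The study asked how this residue tunes the reduction of copper by nucleosomes.

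Sirtuins are deacetylases that consume NAD+. Sir2 removes acetyl groups from histone H4, Sir3 and Sir4 bind the deacetylated nucleosomes and spread along them, and Sir1 brings the complex to the silent mating loci *HML* and *HMR* through the origin recognition complex. Sir2 also acts at telomeres and, with Net1 and Cdc14, in the ribosomal DNA. Hst1, the closest relative of Sir2, is held by Rfm1 on the DNA-binding protein Sum1, and this complex represses middle sporulation genes, genes of NAD+ synthesis from tryptophan and thiamine genes in vegetative cells. Hst3 and Hst4 deacetylate lysine 56 of newly deposited H3, and Hst2 is a largely cytoplasmic sirtuin.

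The substituted codon is shown because it defines the groups. In the RefSeq annotation of build R64, codon 126 lies at the end of each H3 gene (chrII:256688-256732 on the plus strand for *HHT1* and chrXIV:575649-575693 on the minus strand for *HHT2*), with the codon for leucine in capitals. The counts hold no bases, so the substitutions themselves could not be checked.
HHT1: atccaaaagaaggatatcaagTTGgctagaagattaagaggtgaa
HHT2: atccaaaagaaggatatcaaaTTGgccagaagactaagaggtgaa

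Counts assigned to ORFs ranged from 8570789 to 15577958 per library. *URA3* and *MET17* had 0 counts in every library and *LEU2* at most 1, while *HIS3* had 202 to 622. The 5 a-specific genes that mark MATa cells summed to 287.8 to 2046 CPM (read counts relative to library size, scaled with TMM) in the group means, and the 4 alpha-specific genes to 35.3 to 78.6 CPM. In the WT libraries of YPD, replicates 1 and 2 stood apart from replicates 3 and 4, with correlations of their deviations from the group mean of 0.328 and 0.272 within these pairs and -0.714 to -0.580 across them, over all ORFs tested. A split of the same kind was seen in WT in YPEG (0.118 and 0.135 within, -0.643 to -0.444 across). Calls against WT in YPD that turn on its split are given below without replicates 1 and 2 or without replicates 3 and 4. This alternative was chosen after the data were seen. No such fit was made in YPEG, where calls against WT may turn on the split as well. The labels only number the replicates, which the methods call replicate experiments, so p-values measure the spread between these libraries, which may be technical. In bulk RNA, fewer cells of a kind and less RNA per cell cannot be told apart. No difference between these strains can be told apart from the single strain that carried it.

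Levels per kilobase of coding sequence differed widely among the members. In WT in YPD, *HST2* had 102 ± 10.3 CPM per kb (mean ± SD, n = 4), *HST1* 82.2 ± 8.04 and *SUM1* 56.3 ± 5.19. *HST3*, *SIR3*, *RFM1*, *SIR4* and *SIR2* followed between 31.7 and 23.00 CPM per kb, and neighbours in this order differed by less than the larger SD of the pair. *HST4* had 9.74 ± 1.02 and *SIR1* 8.92 ± 0.687, the lowest levels of the 10, and differed by less than the SD of *HST4*. All values below compare 1 gene across libraries and are in CPM without length.

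Most members moved little. The highest of the 6 group means divided by the lowest was 2.32 for *HST4*, 2.25 for *SIR1*, 1.83 for *SIR4*, 1.82 for *RFM1*, 1.75 for *HST2*, 1.58 for *SIR2*, 1.4 for *SUM1*, 1.34 for *HST3*, 1.3 for *SIR3* and 1.11 for *HST1*. The median over the 6082 ORFs tested across media was 1.88. *HST1* lay at percentile 0.23 of these ORFs and was among the steadiest of the genome, while *HST4*, at percentile 66.3, lay above the middle. When the 6 groups of each gene were put in order of their means, libraries of neighbouring groups overlapped in all but 8 of 50 neighbouring pairs. The same count was not made over all ORFs, so it does not say whether the members overlapped more or less than other genes.

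**Figure D1:**
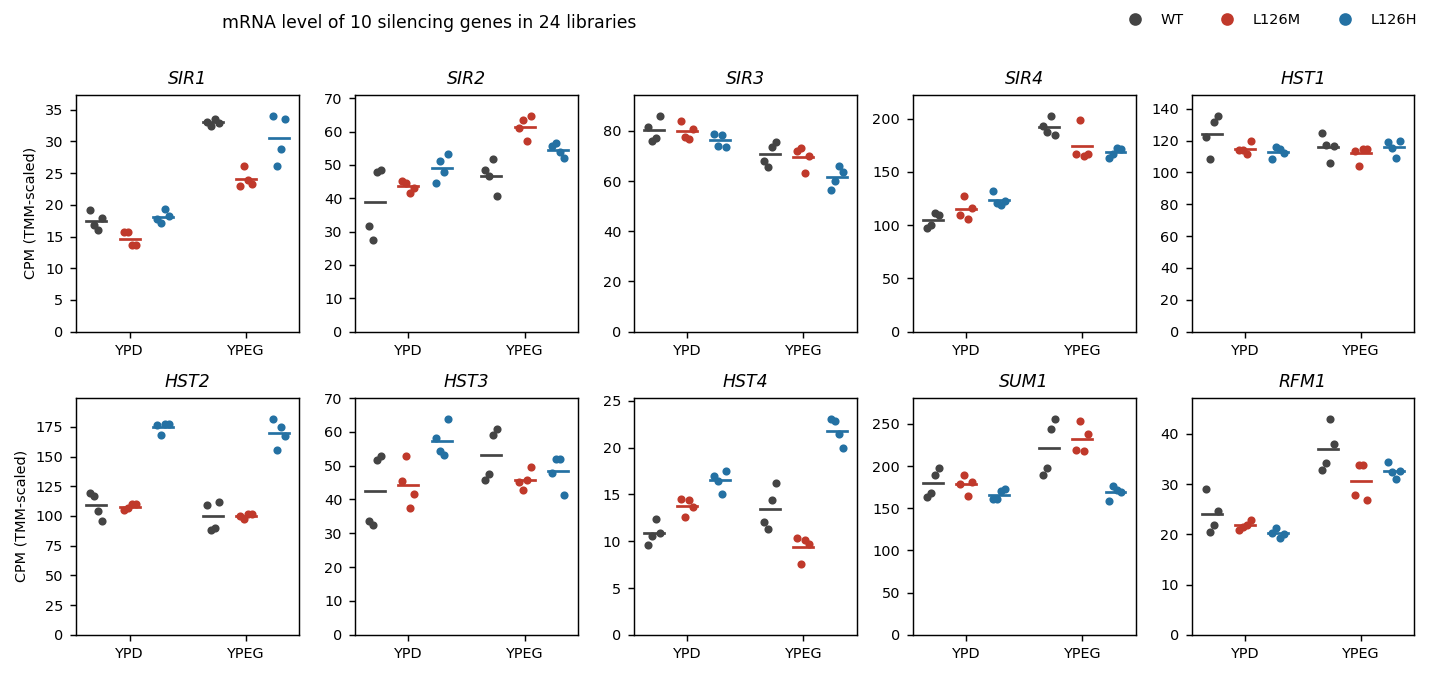
TMM-scaled CPM of the 10 members in each of the 24 libraries (vertical axes, starting at 0), by medium and by strain. Points are libraries and lines are means of 4. *HST2* in H3L126H (168 to 177 in YPD and 156 to 181 in YPEG) lies above every other library, *SIR1* and *SIR4* are higher in YPEG in all strains, and the WT points of *SIR2* and *HST3* in YPD fall into 2 pairs.

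Calls of members were set against the share of all tested ORFs called the same way at an adjusted p below 0.05. In H3L126M against WT in YPD, 1 member was higher and 0 were lower, where 7.83% and 6.74% of 5976 ORFs were. At an unadjusted p below 0.05 there were 2 higher and 1 lower, and the DESeq2 Wald test called 1 and 0. In H3L126H against WT in YPD, 5 were higher and 0 lower, beside 24.5% and 20.1%, and the unadjusted p and DESeq2 gave the same counts. Between the mutants in YPD, 0 members were higher in H3L126M and 2 lower, beside 16.2% and 19.4% (0 and 4 at an unadjusted p below 0.05, 0 and 3 with DESeq2). In YPEG, where 6022 ORFs were tested, H3L126M had 1 member higher and 2 lower than WT, beside 17.1% and 19%. H3L126H had 2 higher and 1 lower, beside 18.7% and 17.7%, and between the mutants 1 was higher in H3L126M and 3 lower, beside 19.4% and 21.2%. In 10 genes, counts of 0 to 3 are close to what these shares give. Only the 5 higher members of H3L126H in YPD stand further off, of which *SIR2* and *HST3* depended on WT replicates 1 and 2. *HST2*, another of the 5, lies on chromosome XVI, whose ORFs had a median of 0.41 there. *SIR2*, *SIR4* and *HST4* lie on chromosome IV (median -0.16) and *HST3* on chromosome XV (median -0.11). Among the 6 strain comparisons a change of more than 2-fold was measured for *HST4* alone, between the mutants in YPEG.

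**Figure D2:**
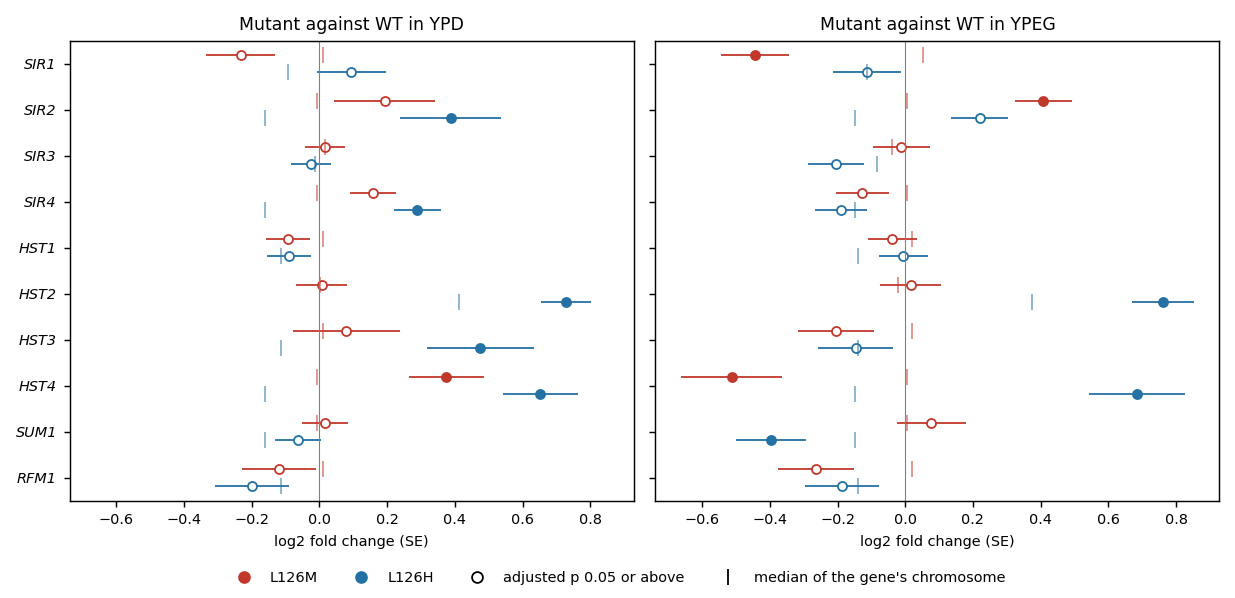
Log2 fold change of each member against WT in YPD (left) and YPEG (right), with its standard error as a bar. Filled points have an adjusted p below 0.05 (edgeR), and vertical ticks give the median of all tested ORFs on the gene's chromosome. *HST2* and *HST4* lie to the right in H3L126H in both media (0.73 and 0.65 in YPD), and *HST4* in H3L126M lies to the right in YPD (0.37) and to the left in YPEG (-0.51).

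*SIR1* (YKR101W, chromosome XI, 640540-642504), whose product recruits the complex to the silent mating loci, was lowest in H3L126M. In YPD it had 19.2, 16.9, 16.1 and 17.9 CPM in WT (replicates 1 to 4), 15.8, 15.7, 13.6 and 13.6 in H3L126M and 17.8, 17.1, 19.4 and 18.2 in H3L126H. All H3L126M libraries lay below all others of that medium. The log2 fold change of H3L126M was -0.23 (SE 0.10, edgeR adjusted p = 0.149) against WT, which did not pass the test, and -0.33 (SE 0.10, edgeR adjusted p = 0.024) against H3L126H, which did, though the call was lost without any 1 of 4 libraries (H3L126M replicates 3 and 4 and H3L126H replicates 3 and 4, adjusted p up to 0.0647). In YPEG *SIR1* had 33.00, 32.5, 33.6 and 32.95 CPM in WT, 22.9, 26.1, 23.9 and 23.2 in H3L126M and 33.97, 26.1, 28.8 and 33.5 in H3L126H. H3L126M again lay below WT without overlap and fell by 0.44 on the log2 scale (SE 0.10, adjusted p = 0.00381). Its difference from H3L126H was -0.33 (adjusted p = 0.0166), lost without H3L126H replicate 1 or 4 (adjusted p = 0.0562, and 0.0579). The interaction of H3L126M with the medium was -0.20 (adjusted p = 0.286), short of a call.

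*SIR2* (YDL042C, chromosome IV, 376757-378445) encodes the deacetylase of the complex. In YPEG it had 48.4, 46.5, 51.6 and 40.5 CPM in WT, 60.9, 63.4, 57.1 and 64.6 in H3L126M and 55.7, 56.6, 53.9 and 52.2 in H3L126H. Both mutants lay above all WT libraries. H3L126M rose by 0.41 (SE 0.084, edgeR adjusted p = 0.00195) on the log2 scale, and the value for H3L126H was 0.22 (adjusted p = 0.0518), short of a call with edgeR and past it with DESeq2 (0.22, adjusted p = 0.0438). In YPD the WT libraries had 31.8, 27.5, 47.7 and 48.4 CPM, H3L126M 45.1, 44.7, 41.6 and 43.2 and H3L126H 44.6, 51.02, 47.8 and 53.2. Both mutants lay above WT replicates 1 and 2, while H3L126M lay below replicates 3 and 4 and H3L126H around them. H3L126H was called at 0.39 (SE 0.15, edgeR adjusted p = 0.0492), a call that was lost without any 1 of 10 of the 12 libraries (all but WT replicates 3 and 4, adjusted p up to 0.13). Without WT replicates 1 and 2 the value was 0.079 (adjusted p = 0.527), so it rests on those 2 libraries. Without WT replicates 3 and 4, H3L126M was also higher, at 0.57 (adjusted p = 0.000541), against 0.19 (adjusted p = 0.429) with all 4.

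*SIR3* (YLR442C, chromosome XII, 1019315-1022251), the nucleosome-binding subunit, and *SIR4* (YDR227W, chromosome IV, 917571-921647), the scaffold, differed in behaviour. *SIR3* had 76.1 to 85.8 CPM in WT in YPD, 76.8 to 84.1 in H3L126M and 73.7 to 78.9 in H3L126H. In YPEG these ranges were 65.6 to 75.6, 63.3 to 73.2 and 56.4 to 65.9. It passed the test in none of the 6 strain comparisons (edgeR, largest change -0.20, adjusted p = 0.0689 in H3L126H in YPEG, with an unadjusted p of 0.0278). The DESeq2 Wald test called it in none of them either. *SIR4* in YPD had 97.8, 99.8, 111 and 109.5 CPM in WT, 109.5, 128, 106 and 116 in H3L126M and 132, 121, 119 and 123 in H3L126H. All H3L126H libraries lay above WT, by 0.29 (SE 0.069, edgeR adjusted p = 0.00427), and H3L126M, which overlapped WT, differed by 0.16 (adjusted p = 0.147) and by 0.23 (adjusted p = 0.0326) without WT replicates 3 and 4. The median of the ORFs of chromosome IV was -0.16 in the same comparison, so that *SIR4* stood 0.45 above its chromosome. In YPEG it had 193, 188, 202 and 185 CPM in WT, 167, 199, 165 and 167 in H3L126M and 163, 167, 172 and 172 in H3L126H. Here the mutants were not called, at -0.13 (adjusted p = 0.216) and -0.19 (adjusted p = 0.0672), although all H3L126H libraries lay below WT. The DESeq2 Wald test called the latter (-0.19, adjusted p = 0.0432). Chromosome IV had a median of -0.15 in H3L126H in YPEG, and with it removed *SIR4* was at -0.040. Without H3L126M replicate 2, edgeR called both mutants (-0.21, adjusted p = 0.0349, and -0.20, adjusted p = 0.0294).

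*HST1* (YOL068C, chromosome XV, 200368-201879), *SUM1* (YDR310C, chromosome IV, 1081128-1084316) and *RFM1* (YOR279C, chromosome XV, 843698-844630) encode the Sum1 repressor complex. *HST1* was flat, with 108 to 135 CPM in WT, 111 to 119.6 in H3L126M and 108 to 116 in H3L126H in YPD, and 106 to 125, 104 to 115 and 109 to 119 in YPEG. No strain comparison called it with edgeR or with the DESeq2 Wald test. The log2 fold changes in YPD were -0.092 (adjusted p = 0.388) in H3L126M and -0.09 (adjusted p = 0.284) in H3L126H, and became -0.20 (adjusted p = 0.0316) and -0.19 (adjusted p = 0.0221) without WT replicates 1 and 2. In YPEG they were -0.038 (adjusted p = 0.707) and -0.0059 (adjusted p = 0.959). *SUM1* had 163, 168, 189.9 and 197 CPM in WT in YPD, 179, 189.9, 164 and 181 in H3L126M and 160.5, 161, 171 and 173 in H3L126H, and the 3 strains overlapped. H3L126H differed from WT by -0.063 (adjusted p = 0.474), and by -0.17 (adjusted p = 0.0467) without WT replicates 1 and 2. In YPEG the levels were 189.6, 198, 244 and 255 CPM in WT, 219.6, 254, 217 and 238 in H3L126M and 159, 176, 172 and 169 in H3L126H. H3L126H lay below all other libraries of the medium. It fell by 0.40 against WT on the log2 scale (SE 0.10, adjusted p = 0.00814), and H3L126M was 0.47 (SE 0.10, edgeR adjusted p = 0.00214) higher than H3L126H. With the median of chromosome IV in H3L126H (-0.15) removed, the difference from WT was -0.25. In WT in YPEG, replicates 1 and 2 (189.6 and 198 CPM) lay nearer to H3L126H than the other libraries (244 and 255 CPM). The fit was not repeated without either pair of WT replicates. Whether the call of *SUM1* in H3L126H against WT turns on this split was not tested. *RFM1* had 29.1, 20.5, 21.8 and 24.6 CPM in WT, 20.9, 21.4, 21.9 and 22.9 in H3L126M and 20.2, 21.3, 19.4 and 20.1 in H3L126H in YPD. In YPEG it had 32.8, 34.2, 42.9 and 38.04 in WT, 27.9, 33.8, 33.8 and 26.9 in H3L126M and 34.3, 32.4, 31.1 and 32.7 in H3L126H. The strains overlapped in both media and no comparison between strains was called.

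*HST2* (YPL015C, chromosome XVI, 525810-526883) was the member with the clearest difference of H3L126H. In YPD it had 119, 117, 104 and 95.7 CPM in WT, 105, 106, 109.8 and 110.4 in H3L126M and 177, 168, 177 and 177 in H3L126H. In YPEG the values were 109.6, 88.2, 89.8 and 112 in WT, 100.3, 97.4, 102 and 101 in H3L126M and 181, 156, 175 and 167 in H3L126H. The H3L126H libraries of both media lay above all 16 others, and H3L126M overlapped WT. H3L126H rose by 0.73 (SE 0.074, edgeR adjusted p = 9.13e-06) in YPD and 0.76 (SE 0.091, edgeR adjusted p = 5.95e-05) in YPEG on the log2 scale, while H3L126M was at 0.0062 (adjusted p = 0.97) and 0.016 (adjusted p = 0.91). *HST2* lies on chromosome XVI, whose ORFs as a whole were higher in H3L126H, with medians of 0.41 and 0.37. Relative to that median, *HST2* was 0.32 higher in YPD and 0.39 in YPEG. Chromosome II had medians of 0.42 and 0.41 in H3L126H. In H3L126M chromosome XVI had medians of 0.00013 and -0.021. The number of chromosome copies was not measured, and its part in the *HST2* value was not tested.

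*HST3* and *HST4* encode the deacetylases of H3 lysine 56. *HST3* (YOR025W, chromosome XV, 378219-379562) had 33.5, 32.5, 51.6 and 52.9 CPM in WT in YPD, 45.4, 52.98, 37.4 and 41.5 in H3L126M and 58.1, 54.3, 53.1 and 63.6 in H3L126H. H3L126H lay above WT without overlap, but the lowest H3L126H library was close to WT replicates 3 and 4. The call at 0.48 (SE 0.16, edgeR adjusted p = 0.025) was lost without WT replicate 1 or 2 or H3L126H replicate 1 or 4, and was 0.18 (adjusted p = 0.24) without WT replicates 1 and 2 together. H3L126M overlapped WT at 0.08 (adjusted p = 0.791), and was 0.43 (adjusted p = 0.013) without WT replicates 3 and 4. In YPEG *HST3* had 45.7, 47.6, 58.9 and 60.7 CPM in WT, 45.2, 42.8, 45.8 and 49.7 in H3L126M and 47.9, 51.98, 51.98 and 41.5 in H3L126H, and neither mutant was called (-0.21, adjusted p = 0.165, and -0.15, adjusted p = 0.312).

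*HST4* (YDR191W, chromosome IV, 842337-843449) was the member with the highest ratio of its highest to its lowest group mean. In YPD it had 9.598, 10.5, 12.3 and 10.9 CPM in WT, 14.6, 12.6, 14.4 and 13.7 in H3L126M and 16.98, 16.4, 15.1 and 17.6 in H3L126H, 3 groups that did not overlap. H3L126M was higher than WT by 0.37 (SE 0.11, edgeR adjusted p = 0.0362), a call lost without any 1 of 8 of the 12 libraries (WT replicates 1, 2 and 4, H3L126M replicates 1, 3 and 4 and H3L126H replicates 1 and 2; adjusted p up to 0.0965), and H3L126H by 0.65 (SE 0.11, edgeR adjusted p = 0.000432). It was 0.28 (adjusted p = 0.183) in H3L126M without WT replicates 1 and 2. In YPEG the mutants lay on opposite sides of WT, with 12.1, 11.3, 14.4 and 16.2 CPM in WT, 10.3, 7.54, 10.1 and 9.73 in H3L126M and 23.02, 22.9, 21.4 and 20.01 in H3L126H. All H3L126M libraries were below WT and all H3L126H libraries above it. H3L126M fell by 0.51 on the log2 scale (SE 0.15, adjusted p = 0.0151, and 0.0515 without WT replicate 4), and H3L126H rose by 0.68 (SE 0.14, edgeR adjusted p = 0.00219). H3L126M minus H3L126H was -1.20 (SE 0.14, edgeR adjusted p = 2.11e-05). Counts of *HST4* were low, at 97 to 377 per library.

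The media were compared in WT to ask which members follow the shift from fermentation to respiration. Of the 10, 5 were higher in YPEG and 1 lower at an adjusted p below 0.05, where 34.3% and 33.2% of 6082 ORFs were. *SIR1* rose from 17.5 ± 1.35 to 33.01 ± 0.435 CPM (mean ± SD, n = 4 per medium), which is 0.91 (SE 0.096, edgeR adjusted p = 1.06e-08) on the log2 scale. *SIR4* rose from 105 ± 6.78 to 192 ± 7.61 CPM, by 0.88 (SE 0.073, edgeR adjusted p = 1.9e-10), and *RFM1* from 24.02 ± 3.79 to 36.97 ± 4.52 CPM, by 0.62 (SE 0.11, edgeR adjusted p = 1.9e-05). For these 3 genes the media did not overlap. *HST4* (0.32, adjusted p = 0.0283) and *SUM1* (0.30, adjusted p = 0.00392) were called with overlapping libraries. *SIR3* fell by 0.18 (adjusted p = 0.0224), a call lost without any 1 of 6 of the 24 libraries (WT replicates 1 and 4 and H3L126M replicates 2 and 3 of YPD, WT replicates 1 and 2 of YPEG). That of *HST4* was lost without WT replicate 1 of YPD or 3 or 4 of YPEG. *SIR2* (0.27, adjusted p = 0.0681) and *HST3* (0.32, adjusted p = 0.0501) were near the threshold, and became 0.42 (adjusted p = 0.00484) and 0.47 (adjusted p = 0.00568) without WT replicate 4 of YPD. *HST1* and *HST2* differed by -0.10 (adjusted p = 0.204) and -0.12 (adjusted p = 0.175). The subunits of the SIR complex did not move as 1 group, with *SIR1* and *SIR4* higher and *SIR3* slightly lower.

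Whether a mutant's effect depended on the medium was tested as an interaction over all 24 libraries. For H3L126M, 1 of 10 members was called, beside 24.7% of the ORFs, and for H3L126H 2 of 10, beside 19.4%. *HST4* was the call for H3L126M, whose effect was lower in YPEG than in YPD by 0.88 on the log2 scale (interaction -0.88, SE 0.18, adjusted p = 0.00142), and it kept its call without any single library. For H3L126H the effect on *SIR4* was -0.43 (SE 0.10, edgeR adjusted p = 0.00624) in YPEG relative to YPD. The interaction of *HST3*, -0.57 (SE 0.20, edgeR adjusted p = 0.0492), was lost without any 1 of 17 of the 24 libraries (all but WT replicates 3 and 4 and H3L126M replicates 1, 2 and 3 of YPD and WT replicates 1 and 2 of YPEG), with an adjusted p of up to 0.103. That of *HST4* in H3L126H was 0.084 (adjusted p = 0.768), which did not pass the test.

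**Figure D3:**
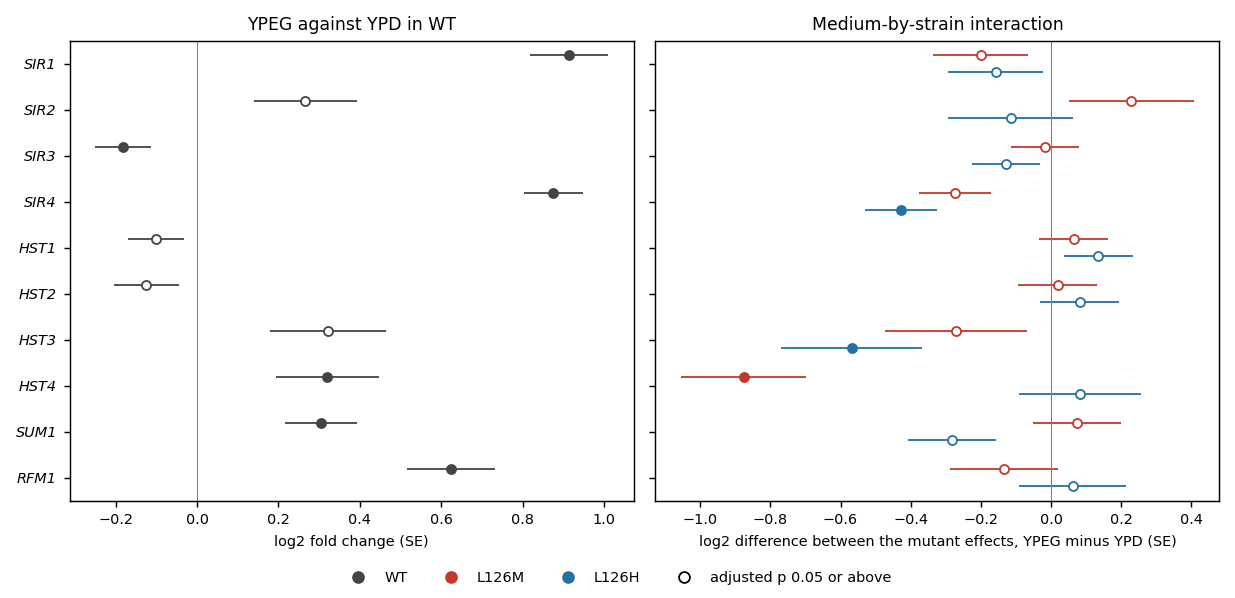
Left, log2 fold change of YPEG against YPD in WT for each member. Right, the interaction, which is the log2 fold change of a mutant against WT in YPEG minus that in YPD, for H3L126M and H3L126H. Bars are standard errors and filled points have an adjusted p below 0.05 (edgeR). *SIR1* and *SIR4* lie farthest to the right on the left side, and *HST4* in H3L126M stands out on the right side at -0.88.

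Over the 24 libraries, levels of *SIR1*, *SIR4* and *RFM1* moved together, with Pearson r of log2 CPM of 0.882 (*SIR1* with *SIR4* and *SIR1* with *RFM1*) and 0.827 (*SIR4* with *RFM1*). *HST2* and *HST4* had 0.760, *SIR1* and *SIR3* -0.708, and *SIR2* and *SIR3*, subunits of the same complex, -0.494. These points share medium, strain and library, so r describes the 6 groups as much as the libraries. The ORFs most like each member over the same 24 libraries were *PET117* (0.969) and *VHT1* (0.959) for *SIR1*, *YRF1-5* (0.853) and *MSG5* (0.852) for *SIR2* and *SPT5* (0.935) and *CDC3* (0.929) for *SIR3*. For *SIR4* they were *SDS23* (0.969) and *MRP4* (0.966), for *HST2* *PUP3* (0.950) and *SHP1* (0.939), for *HST4* *YER053C-A* (0.903) and *SSA3* (0.888), for *SUM1* *TOM70* (0.931) and *UME6* (0.891) and for *RFM1* *FRE5* (0.939) and *CYC2* (0.930). *HST3*, which is transcribed late in the cell cycle, was closest to *CDC5* (0.904), the gene of the polo kinase of mitosis, and *REB1* (0.871). *HST1*, whose level hardly varied, had no close neighbour (*AYT1*, 0.618, and *RUB1*, 0.613).

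The partners of the SIR complex came next, as 17 genes for silencer-binding proteins (Rap1, Abf1, Orc1), telomere proteins, the SAS acetyltransferase and Dot1, which set the marks that keep Sir3 away from active chromatin, the nucleolar Net1 and Cdc14, and the chromatin assembly factor. In H3L126M in YPD 3 were higher and 1 lower (17.6% and 5.88%, beside 7.83% and 6.74% of all tested ORFs; median 0.098, beside 0.0054 over all tested ORFs). *ABF1* rose by 0.56 (adjusted p = 0.00476) and *SAS5* fell by 0.37 (adjusted p = 0.0081). In H3L126H in YPD 7 were higher and 3 lower (41.2% and 17.6%, beside 24.5% and 20.1% of all tested ORFs; median 0.26, beside 0.013). There *RLF2*, which encodes the large subunit of the chromatin assembly factor and lies on chromosome XVI, rose by 0.78 (adjusted p = 2.89e-06), and *SAS5* fell by 0.66 (adjusted p = 4.47e-05). Without WT replicates 1 and 2 of YPD the partners called were 3 higher and 2 lower in H3L126M and 5 and 2 in H3L126H, and without replicates 3 and 4 they were 9 and 1 and 9 and 3. In YPEG more partners were lower than higher. In H3L126M 1 was higher and 9 lower (5.88% and 52.9%, beside 17.1% and 19% of all tested ORFs; median -0.33, beside 0.0072), with *CDC14* at -0.48 (adjusted p = 0.000498) and *MSI1* at -0.60 (adjusted p = 0.00107). In H3L126H 2 were higher and 6 lower (11.8% and 35.3%, beside 18.7% and 17.7% of all tested ORFs; median -0.25, beside -0.0041), with *ORC1* at -0.45 (adjusted p = 0.0028) and *MSI1*, on chromosome II, at 0.73 (adjusted p = 0.000267). In WT, YPEG had 7 higher and 3 lower than YPD (41.2% and 17.6%, beside 34.3% and 33.2% of all tested ORFs). Only *ABF1* (1.02, adjusted p = 3.43e-07) passed 2-fold.

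The cycle of H3 lysine 56, which Hst3 and Hst4 close, was read from 6 genes for the acetyltransferase Rtt109, its chaperones Asf1 and Vps75 and the ubiquitin ligase of Rtt101, Mms1 and Mms22. In H3L126M in YPD 0 were called with edgeR and 0 with DESeq2, and 3 were higher at an unadjusted p below 0.05. *MMS22* was at 0.25 (adjusted p = 0.122) and *ASF1* at 0.17 (adjusted p = 0.131), and both were called without WT replicates 3 and 4 (0.44, adjusted p = 0.00378, and 0.26, adjusted p = 0.0211). In H3L126H in YPD, 3 were higher and 1 lower (50% and 16.7%, beside 24.5% and 20.1% of all tested ORFs), with *ASF1* at 0.35 (adjusted p = 0.00174) and *MMS1*, on chromosome XVI, at 0.72 (adjusted p = 9.09e-05). *ASF1* was higher in YPEG than in YPD in WT (0.77, adjusted p = 3.53e-06), and lower in H3L126M than in WT in YPEG (-0.74, adjusted p = 0.00127), where *HST4* was also lower and *MMS1* was at -0.38 (adjusted p = 0.00365). In H3L126H in YPEG 0 were called with edgeR and 0 with DESeq2 (1 lower at an unadjusted p below 0.05), with *ASF1* at -0.33 (adjusted p = 0.0796) and *MMS1* at 0.14 (adjusted p = 0.22). *VPS75* was lower in YPEG in WT (-0.35, adjusted p = 0.000462).

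Complexes whose deacetylases need no NAD+ were taken for comparison, as 9 genes for the catalytic subunits Rpd3, Hda1 and Hos1 to Hos3, the non-catalytic subunits Sin3, Hda2 and Hda3 and the DNA-binding repressor Ume6. In H3L126M in YPD 0 were called with edgeR, while at an unadjusted p below 0.05 there were 2 higher and 1 lower. *HDA2* was at 0.21 (adjusted p = 0.0724) and *UME6* at -0.16 (adjusted p = 0.0732), and DESeq2 called *UME6* (-0.18, adjusted p = 0.035). Without WT replicates 1 and 2 both were called with edgeR (0.29, adjusted p = 0.0158, and -0.20, adjusted p = 0.0449). In H3L126H in YPD 2 were higher and 3 lower (22.2% and 33.3%, beside 24.5% and 20.1% of all tested ORFs), with *HOS3*, on chromosome XVI, at 0.84 (adjusted p = 4.6e-06) and *UME6* at -0.36 (adjusted p = 0.000271). In YPEG *HDA1* was lower in both mutants (-0.31, adjusted p = 0.00851, and -0.41, adjusted p = 0.00165, against the same WT libraries), *HDA3* was higher in H3L126H (0.42, adjusted p = 0.00158) and *HOS3* lower in H3L126M (-0.40, adjusted p = 0.0235). The call of *HOS3* was lost without any 1 of 3 of the 12 libraries (WT replicates 3 and 4 and H3L126M replicate 3, adjusted p up to 0.0744). In WT 5 of 9 were higher in YPEG (55.6% and 0%, beside 34.3% and 33.2% of all tested ORFs), among them *HOS3* (0.56, adjusted p = 7.92e-05) and *SIN3* (0.44, adjusted p = 0.000129). The cofactor of the sirtuins is regenerated by the salvage pathway, for which 7 genes were listed. In WT, 1 was higher and 5 lower in YPEG (14.3% and 71.4%, beside 34.3% and 33.2% of all tested ORFs; median -0.69), with *NRK1*, the nicotinamide riboside kinase, at -1.27 (adjusted p = 3.64e-10). H3L126H in YPD had 4 of 7 lower and 0 higher (57.1% lower, beside 20.1%; median -0.33), with *NPT1*, which encodes the enzyme that feeds nicotinic acid into NAD+ synthesis, at -0.59 (adjusted p = 5.63e-06) and *NMA1* at -0.26 (adjusted p = 0.00335). In H3L126M in YPD, *NRK1* was at -0.31 (adjusted p = 0.0494), a call lost without any 1 of 10 of the 12 libraries (all but H3L126H replicates 1 and 4, adjusted p up to 0.115) and without either pair of WT replicates, and *PNP1* was at -0.20 (adjusted p = 0.101), and at -0.30 (adjusted p = 0.0108) without WT replicates 3 and 4. In H3L126M in YPEG, *PNP1* was at 0.35 (adjusted p = 0.0244), lost without any 1 of 4 libraries (WT replicates 3 and 4 and H3L126M replicates 1 and 4, adjusted p up to 0.0811). *PNC1* was at 0.40 (adjusted p = 0.0459), lost without any 1 of 7 libraries (WT replicates 2 and 3, H3L126M replicates 1, 3 and 4 and H3L126H replicates 3 and 4, adjusted p up to 0.14). In H3L126H in YPEG *NRK1* and *NPT1* were at -0.34 (adjusted p = 0.0508) and -0.18 (adjusted p = 0.215).

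Genes of the kinds that the Sum1 complex represses were examined beside its subunits. Whether the complex acts on each listed gene was not tested. Of 19 middle sporulation genes, which normally come on during sporulation, 18 could be tested in YPD. In H3L126M 12 were higher and 0 lower, 8 of them past 2-fold, with a median of 0.67 beside 0.0054 over all ORFs (66.7% and 0%, beside 7.83% and 6.74% of all tested ORFs called). In H3L126H 9 were higher and 0 lower, 6 past 2-fold (50% and 0%, beside 24.5% and 20.1% of all tested ORFs; median 0.78, beside 0.013). In both mutants 0 were lower at an unadjusted p below 0.05 and 0 with DESeq2. *CDA1*, a chitin deacetylase of the spore wall, had 1.28 ± 0.452 CPM in WT in YPD (mean ± SD, n = 4, 10 to 19 counts), 8.89 ± 1.22 in H3L126M and 9.45 ± 1.55 in H3L126H. Its log2 fold changes were 2.81 (SE 0.23, edgeR adjusted p = 3.01e-06) and 2.92 (SE 0.23, edgeR adjusted p = 1.2e-06). *SPR28*, a septin of the spore, had 1.32 ± 0.718, 5.38 ± 1.04 and 6.75 ± 0.995 CPM (2.03, SE 0.30, edgeR adjusted p = 0.000378, and 2.38, SE 0.29, edgeR adjusted p = 4.04e-05). In both genes the mutants did not overlap WT. *DIT1*, an enzyme of dityrosine synthesis for the spore wall, was at 1.67 and 1.42, *SPS4* at 1.69 in H3L126M and *GIP1*, a partner of the protein phosphatase Glc7, at 1.25 in H3L126H. *GIP1* lies on chromosome II, whose ORFs had a median of 0.42 in H3L126H in YPD. No chromosome median was removed from the values of this list. Both mutants were compared with the same WT libraries. WT libraries held few reads of these genes, with 7 to 24 counts of *SPR28* and 36 to 73 of *DIT1*. Without WT replicates 1 and 2, 11 and 9 genes were higher in the mutants, and without replicates 3 and 4, 13 and 12.

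WT itself had higher levels of these genes in YPEG, where 14 of 19 were higher and 1 lower (73.7% and 5.26%, beside 34.3% and 33.2% of all tested ORFs; median 0.91, beside 0.019), led by *SPR28* (3.19, adjusted p = 3.57e-11), *CDA1* (2.99, adjusted p = 3.17e-12), *SPS4* (2.62, adjusted p = 1.01e-11) and the septin gene *SPR3* (2.32, adjusted p = 8.77e-09). In YPEG, 9 of 19 were higher in H3L126M and 0 lower (1 lower at an unadjusted p below 0.05, 0 with DESeq2), with *CDA2* at 2.48 (adjusted p = 0.000804) and *CDA1* at 1.58 (adjusted p = 1.26e-06). These were 47.4% and 0%, beside 17.1% and 19% of all tested ORFs. In H3L126H 7 were higher and 1 lower, *CDA2* at 1.78 (adjusted p = 0.00794) and *SPS4* at -1.24 (adjusted p = 6.55e-05). These were 36.8% and 5.26%, beside 18.7% and 17.7% of all tested ORFs. *CDA2* had 4 to 16 counts in WT in YPEG, 37 to 68 in H3L126M and 27 to 59 in H3L126H, and without WT replicate 2 its values were 3.19 and 2.49. By the interaction test the effect of H3L126M was lower in YPEG than in YPD for *SPR28* (-1.87, adjusted p = 0.000329), *CDA1* (-1.22, adjusted p = 0.0017), *SPS4* (-1.20, adjusted p = 0.00156) and *DIT1* (-1.38, adjusted p = 0.000181). For H3L126H the values were -1.35 (adjusted p = 0.00577), -2.04 (adjusted p = 1.44e-05), -1.69 (adjusted p = 0.000233) and -1.31 (adjusted p = 0.000464).

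Sum1 binds the middle sporulation element. The promoters (250 bases before to 50 after the ORF start, RefSeq build R64) were searched on both strands for GNCACAAAA, GNCACAAAT, GNCGCAAAA and GNCGCAAAT, counting a promoter once. The element was found in 12 of 19 middle sporulation promoters (63.2%) and in 319 of 5988 promoters (5.33%), and in none of the windows of the 10 members, the 6 genes of NAD+ synthesis, the 17 thiamine genes or the 17 silencing partners. No match says only that these letters are not in this window. Of the middle sporulation genes tested in YPD, 7 of 11 with the element and 5 of 7 without it were higher in H3L126M, and 5 of 11 and 4 of 7 in H3L126H. The median log2 fold changes were 0.54 with the element and 1.45 without it in H3L126M, and 0.76 and 1.11 in H3L126H. Windows of 5 genes are printed to show the letters that were matched, in both orientations, and these genes were chosen after their values were seen. Each is taken from build R64 and written 5′ to 3′ in the direction of its gene, with the element in capitals (chrIV:905132-905160 for *SPR28*, chrVII:607530-607558 for *SPR3*, chrXV:903048-903076 for *SPS4*, chrXVI:666190-666218 for *SMK1* and chrXII:807223-807251 for *SPO77*). *SPR28* and *SPS4* are transcribed from the minus strand, so their windows are the minus strand at these coordinates.
SPR28: tgcgtctacaTTTTGTGTCattcccataa
SPR3: ctaaaattccTTTTGCGTCattgaatttt
SPS4: attgacgcgcGCCACAAAAacgtatcatt
SMK1: ggcgccactaATTTGTGACacttgaacag
SPO77: tataagaaatGTCACAAAAtcaaaaatag
In *SPR28*, *SPR3* and *SMK1* the element reads against the direction of the gene, so the capitals are its reverse complement. In *SPS4* and *SPO77* it reads in the direction of the gene. *SPR3* was at 1.54 (adjusted p = 0.00108) in H3L126M and 1.08 (adjusted p = 0.00485) in H3L126H in YPD, *SMK1*, the kinase of spore wall assembly, on chromosome XVI, at 0.46 (adjusted p = 0.0253) and 0.96 (adjusted p = 5.95e-05), and *SPO77* at 0.73 (adjusted p = 0.0121) and 0.89 (adjusted p = 0.00115).

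*BNA2*, which encodes the first enzyme of NAD+ synthesis from tryptophan and is a known target of Hst1, had 3.58 ± 0.575 CPM in WT in YPD, 29.4 ± 3.74 in H3L126M and 20.4 ± 2.04 in H3L126H, each the mean ± SD of 4 libraries. It had 96.96 ± 6.44, 131 ± 18.99 and 99.1 ± 6.73 CPM in YPEG. The 3 groups did not overlap in YPD, with log2 fold changes of 3.06 (SE 0.15, edgeR adjusted p = 1.68e-08) and 2.55 (SE 0.15, edgeR adjusted p = 1.21e-07), while in YPEG H3L126H overlapped WT. Of the 6 genes of the list, 4 were higher in H3L126M in YPD and 0 lower (*BNA4* 1.24, adjusted p = 2.74e-06), and 4 were higher and 2 lower in H3L126H (*BNA4* 1.09, adjusted p = 3.92e-06, on chromosome II). These were 66.7% higher in H3L126M, beside 7.83% of all tested ORFs, and 66.7% and 33.3%, beside 24.5% and 20.1% of all tested ORFs in H3L126H. In YPEG the mutants had 5 and 1 higher, with *TNA1*, the nicotinic acid importer, at 0.78 (adjusted p = 0.000408) and *BNA4* at 0.60 (adjusted p = 0.00127) in H3L126M, and *BNA4* at 0.59 (adjusted p = 0.00163) and *BNA1* at -0.19 (adjusted p = 0.172) in H3L126H. The shares higher were 83.3% in H3L126M and 16.7% in H3L126H, beside 17.1% and 18.7% of all tested ORFs. Some thiamine genes are repressed by Hst1 as well. Of 17, 5 were higher and 0 lower in H3L126M in YPD (29.4% and 0%, beside 7.83% and 6.74% of all tested ORFs; median 0.55) and 10 higher and 1 lower in H3L126H (58.8% and 5.88%, beside 24.5% and 20.1% of all tested ORFs; median 0.55). In H3L126H 4 of the 10 lie on chromosomes XVI (*THI6*, *THI21* and *THI22*) and II (*THI2*), whose medians over all ORFs were 0.41 and 0.42. With the chromosome median removed, *THI6* went from 0.49 to 0.079, *THI21* from 0.55 to 0.14, *THI22* from 0.59 to 0.17 and *THI2* from 1.43 to 1.01. The copies *THI5*, *THI11*, *THI12* and *THI13* share most of their sequence (15.0% to 40.0% of each is unique), so each stands for a group of copies. *THI5* had 0 to 7 counts in WT, 30 to 51 in H3L126M and 40 to 46 in H3L126H, *THI12* was at 1.97 (adjusted p = 0.000626) and 2.10 (adjusted p = 0.000144), *THI13* at 1.68 (adjusted p = 0.00298) and 1.61 (adjusted p = 0.00143), *THI11* at 1.12 (adjusted p = 0.00253) in H3L126M, and *THI2*, a single-copy activator, at 1.43 (adjusted p = 0.00115) in H3L126H. Without WT replicates 1 and 2 the higher thiamine genes were 7 and 10, and without replicates 3 and 4 they were 8 and 11. In YPEG, 4 and 9 of 17 were higher and 1 lower in each mutant, with *THI13* at 0.72 (adjusted p = 0.00974) and *THI21* at 0.49 (adjusted p = 0.00604) in H3L126M and *THI5* at 1.08 (adjusted p = 0.00161) and *THI12* at 1.04 (adjusted p = 0.00237) in H3L126H. These were 23.5% and 5.88%, beside 17.1% and 19% of all tested ORFs, in H3L126M and 52.9% and 5.88%, beside 18.7% and 17.7% of all tested ORFs, in H3L126H. Of the 9 in H3L126H, 5 lie on chromosomes II and XVI, and with the chromosome median removed *PHO3* went from 0.31 to -0.095 and the other 4 lay at 0.35 to 0.55. WT in YPEG had 12 higher and 2 lower than in YPD (70.6% and 11.8%, beside 34.3% and 33.2% of all tested ORFs). Among the higher were *SNZ3*, *SNO3* and *SNZ2* (2.98, 2.71 and 2.29), near-identical copies of vitamin B6 genes whose reads the counting could split.

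**Figure D4:**
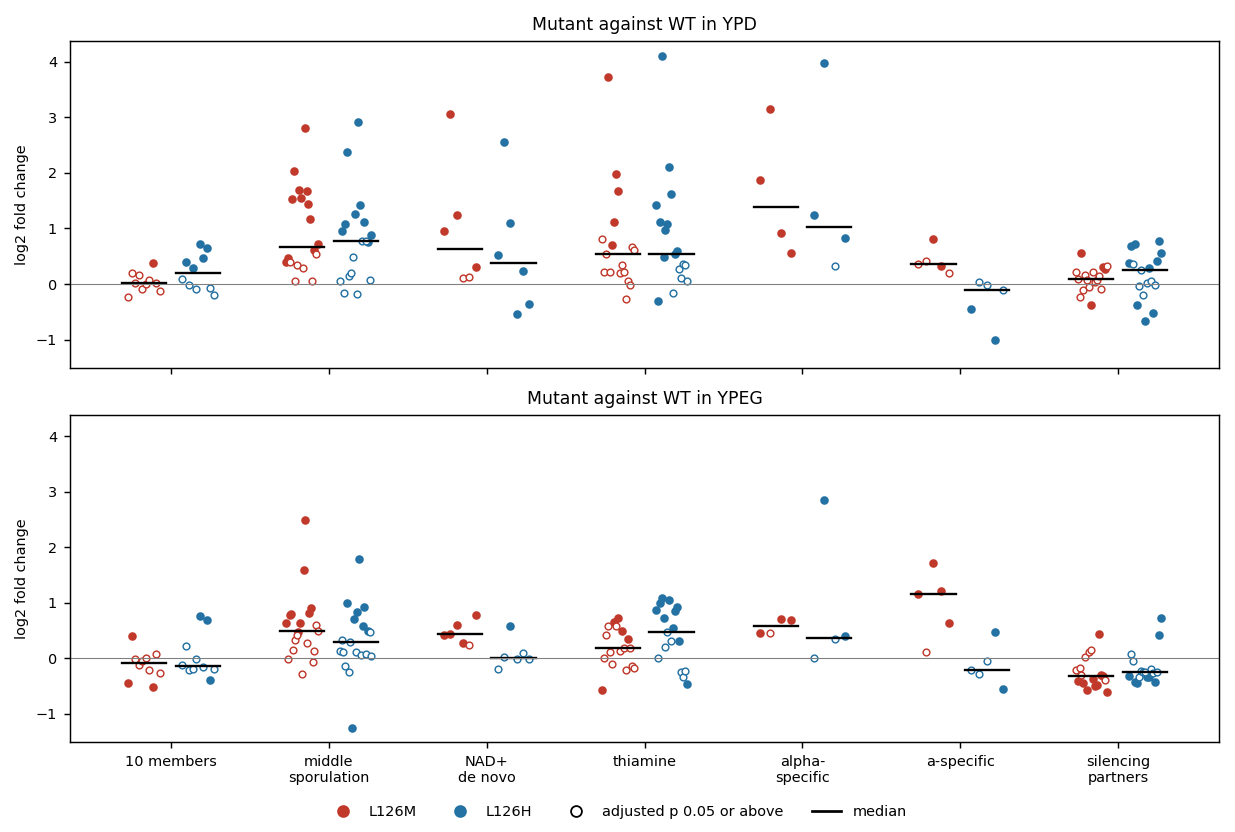
Log2 fold change of the members and of 6 lists of related genes in each mutant against WT, in YPD (top) and YPEG (bottom). Each point is 1 gene, filled where its adjusted p was below 0.05 (edgeR), and black lines are medians. In YPD the middle sporulation genes lie mostly above 0 in both mutants (medians 0.67 and 0.78), while the 10 members have medians of 0.016 and 0.19, with *HST2* at 0.73 and *HST4* at 0.65 in H3L126H.

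The loci that the SIR complex silences could be read only in part. *HMLALPHA1*, *HMLALPHA2* and *HMRA2* are repeated at the mating-type locus, no part of their sequence is unique, and they had at most 11 counts per library. *HMRA1* had 449 to 1942 counts, but a MATa strain expresses the same sequence from *MAT*, so *HMR* cannot be read from it. It was at -0.19 (adjusted p = 0.158) and 0.14 (adjusted p = 0.225) in YPD and at -0.14 (adjusted p = 0.223) and 0.12 (adjusted p = 0.308) in YPEG in the mutants, and higher in YPEG in WT (0.89, adjusted p = 1.93e-09). *STE3*, the receptor for a-factor that MATa cells keep off, had 4.42 ± 0.549 CPM in WT in YPD, 15.9 ± 1.93 in H3L126M and 10.2 ± 0.970 in H3L126H (1.87, SE 0.15, edgeR adjusted p = 2.01e-06, and 1.25, SE 0.15, edgeR adjusted p = 3.32e-05), without overlap of either mutant with WT. *MF(ALPHA)1*, on chromosome XVI, had 0 to 6 counts in WT in YPD, 14 to 26 in H3L126M and 20 to 38 in H3L126H, and 15 to 50, 32 to 62 and 208 to 381 in YPEG. Of the 4 alpha-specific genes, all 4 were higher in H3L126M and 3 in H3L126H in YPD, and in YPEG 3 and 2, with *SAG1* at 0.69 (adjusted p = 0.000314) in H3L126M. As shares, these were 100% and 75% in YPD, beside 7.83% and 24.5% of all tested ORFs. In YPEG they were 75% and 50%, beside 17.1% and 18.7%.

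The a-specific genes are expressed in MATa cells. In H3L126M 2 of 5 were higher in YPD (*BAR1* 0.80, adjusted p = 0.0122, *MFA1* 0.32, adjusted p = 0.0144) and 4 in YPEG. These were 40% and 80%, beside 7.83% and 17.1% of all tested ORFs. The YPD call of *MFA1* was lost without WT replicates 1 and 2, at 0.20 (adjusted p = 0.0634), and without H3L126M replicate 3, at an adjusted p of 0.0569. In YPEG *BAR1* was at 1.72 (adjusted p = 5.31e-08), *MFA1* at 1.22 (adjusted p = 7.36e-05) and the receptor gene *STE2* at 1.15 (adjusted p = 4.27e-06). In H3L126H 2 were lower in YPD (40%, beside 20.1% of all tested ORFs), with *MFA1* at -1.02 (adjusted p = 1.17e-06). In YPEG *MFA2* was at -0.55 (adjusted p = 0.000152) and *MFA1* at 0.47 (adjusted p = 0.0305) in H3L126H, the latter lost without any 1 of 5 libraries (WT replicates 3 and 4 and H3L126H replicates 1, 2 and 4, adjusted p up to 0.0944). All 5 were more than 2-fold lower in YPEG than in YPD in WT, with *STE2* at -3.09 and *MFA1* at -2.92 on the log2 scale. Of the 6082 ORFs tested across media, 533 were called at least 2-fold lower.

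ORFs whose nearest end lies within 10 kb of a chromosome end were described because Sir2, Sir3 and Sir4 act at telomeres. Of 122 such ORFs, 86 were tested in YPD and 87 in YPEG. In YPD 25 were higher and 5 lower in H3L126M (median 0.44, beside 0.0054), and 37 and 8 in H3L126H (median 0.51, beside 0.013). In YPEG the counts were 33 and 4 (median 0.37) and 35 and 3 (median 0.39). As shares of those tested, 29.1%, 43.0%, 37.9% and 40.2% were higher, where all ORFs gave 7.83%, 24.5%, 17.1% and 18.7%. In WT, 45 of 92 were higher and 10 lower in YPEG (median 0.58). These were 48.9% and 10.9%, beside 34.3% and 33.2% of all tested ORFs. The levels of these ORFs were low, with a median of 8.22 CPM for those tested in YPD, averaged over the 24 libraries, where all tested ORFs had 68.2 CPM. Whether their levels follow those of the SIR genes was not tested.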

How the data were processed

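RNA was extracted with hot acid phenol and treated with DNase, and stranded poly-A libraries were made and sequenced at a core facility. The authors aligned reads with HISAT2 to build sacCer3 and counted them over 6692 ORFs with featureCounts. The values used were the deposited raw counts per ORF, in 24 columns with 0 columns unmapped to a sample. The deposited counts normalized with DESeq2 were not used. Library totals were 8570789 to 15577958 counts.

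Counts were tested with edgeR 4.0.16 (R 4.3.3, limma 3.58.1): filterByExpr with a minimum count of 10, TMM scaling, a quasi-likelihood fit, Benjamini-Hochberg adjustment over all ORFs tested and calls at an adjusted p below 0.05. Strain comparisons used the 12 libraries of a medium, and the medium and interaction contrasts all 24. SE is the log2 fold change divided by the square root of F. The fit was tested on simulated data. Strand was kept by the library kit, and each member's sequence is unique in the genome at 50-base windows. Alternatives were 9 (DESeq2 1.42.0 among them) and 2 added after the data were seen. Coordinates and sequences come from RefSeq for R64, the same assembly as sacCer3, and 6008 ORFs matched. Figures were drawn with matplotlib 3.10.9, and tables read with pandas 2.3.3 (numpy 2.4.6, Python 3.11.15). The members, lists and tests were chosen with earlier results of these data known. Genes named were the members and, of each list, at most the 4 largest calls past 2-fold or else the 2 smallest p, and for each member the 2 ORFs with the highest Pearson r over the 24 libraries. Genes named outside this rule (*SMK1*, *SPO77*, *THI6*, *THI22*, *PHO3* and further values of the same genes) were chosen after their values were seen.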

Additional observations from a re-analysis of the deposited data

Results flagged for a closer look

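In groups of 4 libraries, 1 library stood far from the other 3 in 7 of 90 groups tested (15 genes in 6 groups), where chance alone gives about 1 in 20. These were *SIR4* in H3L126M in YPEG (199 CPM in replicate 2, the others at 165 to 167), *HST1* in H3L126M in YPEG (104 CPM in replicate 2, the others at 113 to 115), *HST2* in H3L126H in YPD (168 CPM in replicate 2, the others all at 177), *STE3* in WT in YPD (3.60 CPM in replicate 4, the others at 4.65 to 4.75), *CDA1* in H3L126M in YPEG (33.2 CPM in replicate 1, the others at 29.1 to 29.7), *SPR28* in WT in YPEG (15.00 CPM in replicate 1, the others at 11.1 to 11.4) and *HMRA1* in H3L126M in YPD (39.4 CPM in replicate 1, the others at 46.8 to 47.6).

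The effect of a mutant differed between the media, by the interaction test over all 24 libraries, for 1 of the 10 members in H3L126M and 2 in H3L126H, where 24.7% and 19.4% of all ORFs were called. The list genes were named for large or significant differences in single comparisons, which favours a difference between media, so no count of them is given. Values are the log2 fold change against WT in YPEG minus that in YPD. For H3L126M the member was *HST4* at -0.88. Among silencing partners the values were -0.85 (*ABF1*), 0.53 (*SAS5*), -0.64 (*RLF2*), -0.54 (*CDC14*) and -0.91 (*MSI1*). Among genes of the H3 lysine 56 cycle the values were -0.44 (*MMS22*) and -0.90 (*ASF1*). Among genes of the NAD+-independent deacetylase complexes the values were 0.47 (*UME6*) and -0.40 (*HDA1*). Among NAD+ salvage genes it was 0.56 (*PNP1*). Among a-specific genes the values were 0.93 (*BAR1*), 0.91 (*MFA1*), 0.80 (*STE2*) and 0.46 (*MFA2*). Among alpha-specific genes the values were -2.70 (*MF(ALPHA)1*) and -1.39 (*STE3*). Among middle sporulation genes the values were -1.22 (*CDA1*), -1.87 (*SPR28*), -1.20 (*SPS4*), -1.38 (*DIT1*), -0.91 (*GIP1*) and 2.08 (*CDA2*). Among NAD+ synthesis genes the values were -2.61 (*BNA2*), -0.63 (*BNA4*), 0.48 (*TNA1*) and -0.53 (*BNA1*). Among thiamine genes the values were -3.13 (*THI5*), -1.38 (*THI12*) and -1.36 (*THI2*). For H3L126H, the members were *SIR4* at -0.43 and *HST3* at -0.57. Among silencing partners the values were -1.10 (*ABF1*) and 0.46 (*SAS5*). Among genes of the H3 lysine 56 cycle the values were -0.63 (*ASF1*) and -0.53 (*MMS1*). Among a-specific genes the values were 1.53 (*MFA1*) and -0.39 (*MFA2*). Among alpha-specific genes it was -1.19 (*STE3*). Among middle sporulation genes the values were -2.04 (*CDA1*), -1.35 (*SPR28*), -1.69 (*SPS4*), -1.31 (*DIT1*) and -1.16 (*SPR3*). Among NAD+ synthesis genes the values were -2.47 (*BNA2*), -0.46 (*BNA4*) and -0.67 (*BNA1*). Among thiamine genes the values were -2.98 (*THI5*) and -1.26 (*THI13*). Among genes of the NAD+-independent deacetylase complexes the values were -0.50 (*HOS3*) and 0.36 (*HDA3*). Among NAD+ salvage genes it was 0.46 (*NPT1*).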

How the results depend on the processing

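The number of members called was recomputed under each alternative. In H3L126M against WT in YPD, where 1 was called, it was 0 with only the libraries compared, 0 with all 24 libraries in 1 fit, 0 with the replicate block, 0 at an adjusted p below 0.01 and 4 without WT replicates 3 and 4. In H3L126H against WT it was 3 at an adjusted p below 0.01 in YPD, and in YPEG 5 under the DESeq2 Wald test and 5 with all 24 libraries. In the other comparisons it was 1 at an adjusted p below 0.01 for H3L126M against H3L126H in YPD, and 1 for the interaction of H3L126H with no filter, with the replicate block or at an adjusted p below 0.01. Leaving out 1 library in turn gave 0 to 1 (of 1 called) for H3L126M against WT in YPD, 3 to 5 (of 5 called) for H3L126H against WT in YPD, 1 to 3 (of 2 called) for H3L126M against H3L126H in YPD, 2 to 5 (of 3 called) for H3L126M against WT in YPEG, 3 to 4 (of 3 called) for H3L126H against WT in YPEG, 3 to 4 (of 4 called) for H3L126M against H3L126H in YPEG, 4 to 8 (of 6 called) for YPEG against YPD in WT, 1 to 2 (of 1 called) for the interaction of H3L126M and 1 to 3 (of 2 called) for the interaction of H3L126H.

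Replicate numbers are shared across groups. Deviations from the group means correlated at -0.327 to 0.271 over 24 pairs of strains with the same number in a medium (WT with H3L126H in YPEG at 0.0212 to 0.208, 3 of 4 over 0.1). Across media the same-numbered pairs gave -0.141 to 0.187 in WT, -0.164 to 0.0614 in H3L126M and -0.0583 to 0.0507 in H3L126H. WT pairs with different numbers gave -0.218 to 0.213. With 4 libraries per group these correlations cannot show whether same-numbered samples were handled together, and the labels give only the number. With the replicate block the calls of *HST4* in H3L126M in YPD (0.37, adjusted p = 0.0748), *SIR2* in H3L126H in YPD (0.41, adjusted p = 0.0524) and *HST3* in the interaction of H3L126H (-0.57, adjusted p = 0.0546) were lost, and *HST3* in YPEG against YPD in WT stayed uncalled at 0.33 (adjusted p = 0.0513).

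Log2 fold changes of members that changed sign were small and not called before or after the change. For H3L126M in YPD they were -0.000722 (*SIR3*), -0.00953 (*HST2*) and -0.0021 (*SUM1*) with DESeq2 size factors, -0.000661 (*SIR3*), -0.00907 (*HST2*) and -0.00249 (*SUM1*) with the DESeq2 Wald test, and -0.00674 (*SIR3*), -0.015 (*HST2*) and -0.00854 (*SUM1*) with all 24 libraries. *HST1* between the mutants in YPD was 0.00118 with no filter, 0.00353 with only the libraries compared and 0.0224 with all 24, and *SIR3* in the interaction of H3L126M was 0.000238 with DESeq2 size factors and 0.00408 with no filter. Without WT replicates 1 and 2 of YPD, H3L126M gave -0.12 (*SIR2*), -0.00577 (*SIR3*), -0.22 (*HST3*) and -0.0945 (*SUM1*). Without replicates 3 and 4, H3L126M gave 0.00669 (*HST1*) and -0.12 (*HST2*), and H3L126H 0.00874 (*HST1*) and 0.042 (*SUM1*). The cause was not tested. Leaving out 1 library in turn gave -0.047 to 0.0288 (*HST1*) for H3L126H against WT in YPEG, -0.0258 to 0.0124 (*HST1*) for H3L126M against H3L126H in YPD, -0.0357 to 0.14 (*HST2*), -0.0502 to 0.18 (*HST4*) and -0.12 to 0.14 (*RFM1*) for the interaction of H3L126H, -0.0413 to 0.0987 (*HST2*) and -0.0605 to 0.0372 (*SIR3*) for the interaction of H3L126M, -0.0581 to 0.0549 (*HST2*), -0.0256 to 0.19 (*HST3*), -0.0111 to 0.0426 (*SIR3*) and -0.0246 to 0.0553 (*SUM1*) for H3L126M against WT in YPD, -0.0437 to 0.0815 (*HST2*) and -0.0505 to 0.0295 (*SIR3*) for H3L126M against WT in YPEG, -0.0483 to 0.00136 (*SIR3*) for H3L126H against WT in YPD and -0.0113 to 0.0881 (*SIR4*) for H3L126M against H3L126H in YPEG. Over all alternatives, members called in the comparison kept their direction in every setting, and lost the call in 67 combinations of member, comparison and setting. Low counts limit *HST4*, *SIR1* and the target genes of WT in YPD, and 1 strain per genotype limits every comparison.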
